A study of Mus musculus with 2 samples.

Results

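Copying the genome in S phase needs a helicase that opens the double helix, loading and firing factors that set it at origins, polymerases with a sliding clamp, enzymes that join the lagging strand and a supply of deoxynucleotides. A set of 39 such genes, together with chromatin factors of the replication fork and regulators of the entry into S phase, was followed in mouse prostaspheres with and without Sox9. The genes were taken by symbol, from a list drawn up with earlier results of these data known, out of the 27822 named genes of an Agilent whole mouse array, and each was read from its brightest probe. All 39 were found, on 57 probes in 75 spots. A probe was tested where it was well above background, by the mark of the scanner software, in the same dye on both arrays. This held for 38 of the 39 genes, each of which was above background in all 4 RNAs. The remaining gene, the cyclin Ccne2, had -0.037 on the genotype array and 0.18 on the treatment array as log2 ratios of a dim probe and was not tested.

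Prostaspheres are spheres that prostate epithelial cells form in Matrigel. The labels give a C57/Bl6J background for every RNA and urogenital sinus epithelium of embryos at 16 days post conception as the source, whereas the study's methods describe prostaspheres from adult prostate. After 6 days in Matrigel with dihydrotestosterone the spheres had 6 days of tamoxifen (TAM, 5 µM) or vehicle. Floxed spheres carried ERCre and Sox9 flox/flox, so that TAM, by activating Cre, deletes Sox9, and the labels do not say whether the wild-type spheres carried ERCre. On the first array, the genotype comparison, RNA of TAM-treated spheres with wild-type Sox9 (Cy5) was set against RNA of TAM-treated floxed spheres (Cy3). On the second, the treatment comparison, RNA of vehicle-treated floxed spheres (Cy5) was set against RNA of TAM-treated floxed spheres (Cy3). Every log2 ratio is Sox9-expressing over Sox9-deleted RNA, with a log2 ratio of 1 standing for a doubling. Each comparison is 1 array of 1 slide, 4 RNAs were used in all, and the labels do not say how many animals or cultures gave an RNA. The Sox9-expressing RNA was in Cy5 on both arrays, so no probe's preference for a dye can be told apart from an effect of Sox9. In the treatment comparison exposure to TAM cannot be told apart from loss of Sox9, and in the genotype comparison neither can the mouse line.

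The brightest of the 3 Sox9 probes had log2 ratios of 2.69 and 2.37 on the 2 arrays, and the next 1.18 and 1.27. The dimmest had -0.997 and -1.22, so 2 of 3 probes went with the assignment by titles, genotypes and treatments. Of 8 epithelial markers all were well above background in all 4 RNAs, and of 10 stromal markers 9 were. Of 6 immune markers 3, Cd68, Cd79a and Csf1r, were well above background in all 4 RNAs and 3, Ptprc, Cd3e and Emr1, in none, and of 4 endothelial markers Cdh5 and Kdr in all and Pecam1 and Tek in none. Cd79a (log2 levels of 6.67 to 6.74) and Csf1r (6.81 to 6.93) were dim and close to Emr1 (6.53 to 6.69), whereas Cd68 was at 8.32 to 9.09. Cd68, a marker of macrophages, was the lowest of the immune list, at -0.69 and -0.77 (limma adjusted p = 0.0979), and Cd79a the highest, at 0.015 and -0.04. The correlation between arrays was 0.44 over the 15122 tested genes, which are not independent replicates.

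Transcription factors of the E2F family switch on many replication genes at the end of G1, and the NF-Y factor binds the CCAAT box of many promoters of dividing cells. The RefSeq promoter table (GRCm38.p6, 250 bases before to 50 after each annotated start) held 32 of the 39 genes, and not Mcm4, Gins1, Gins2, Prim2, Rfc2, Pole and Ccne2. The E2F letters TTTCCCGC, TTTCGCGC, TTTGCCGC or TTTGGCGC, read on both strands and at any annotated start of a gene, were present for 11 of the 32 (34.4%) and for 2.61% of all 27025 genes of the table. The CCAAT box was present for 18 of the 32 (56.3%) against 41.1% of all genes, and the letters TTTGAA of the CHR element, known from promoters of late cell-cycle genes, for 3 of the 32 (9.38%) against 20.2%. The E2F letters TTTCGCGC and TTTGGCGC can overlap on opposite strands, as they do in Mcm5. Stretches before the start, which end at the base before it, are shown for the 5 genes with the highest mean log2 ratios on the arrays and for Cdc6, which had E2F letters and log2 ratios near 0. Capitals mark E2F letters and CCAAT boxes, on either strand.
Mcm5 (chr8:75109346-75109508, plus strand): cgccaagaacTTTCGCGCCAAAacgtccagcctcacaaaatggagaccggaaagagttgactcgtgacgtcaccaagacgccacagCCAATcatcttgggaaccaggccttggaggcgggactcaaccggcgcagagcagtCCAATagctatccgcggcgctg
Uhrf1 (chr17:56304118-56304312, plus strand): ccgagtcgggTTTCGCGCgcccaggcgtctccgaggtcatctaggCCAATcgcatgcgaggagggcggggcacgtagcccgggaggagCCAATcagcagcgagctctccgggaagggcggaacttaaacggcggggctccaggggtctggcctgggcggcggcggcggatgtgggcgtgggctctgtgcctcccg
Tk1 (chr11:117826015-117826124, minus strand): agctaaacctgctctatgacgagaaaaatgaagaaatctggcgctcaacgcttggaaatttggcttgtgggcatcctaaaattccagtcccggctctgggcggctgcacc
Rrm1 (chr7:102441594-102441694, plus strand): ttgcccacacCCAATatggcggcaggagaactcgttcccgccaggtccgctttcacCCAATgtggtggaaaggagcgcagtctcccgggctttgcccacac
Rpa1 (chr11:75348384-75348483, minus strand): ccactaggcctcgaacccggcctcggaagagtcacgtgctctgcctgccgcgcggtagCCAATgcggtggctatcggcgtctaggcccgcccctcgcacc
Cdc6 (chr11:98908003-98908150, plus strand): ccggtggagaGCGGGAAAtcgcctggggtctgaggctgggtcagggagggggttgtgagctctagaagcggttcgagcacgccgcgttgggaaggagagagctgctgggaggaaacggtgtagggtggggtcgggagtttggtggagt
Within these stretches Mcm5 carried 2 overlapping E2F matches and 2 CCAAT boxes, and Uhrf1, at one of its annotated starts, 1 and 2. Rrm1 had 2 CCAAT boxes and Rpa1 had 1, both without E2F letters, and Tk1 had neither motif. After the start, Mcm5 and Rpa1 each had 1 more CCAAT box. A match is a description of the letters and not a binding site. The median of the mean log2 ratio over both arrays was 0.19 for the 11 genes with E2F letters and 0.19 for the 21 without, and 0.26 for the 18 with a CCAAT box against 0.12 for the 14 without.

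Most of the replication genes had log2 ratios above 0, and the values were larger where the Sox9-expressing spheres had had vehicle. The median log2 ratio of the 38 tested genes was 0.078 on the genotype array and 0.30 on the treatment array, where that of all tested genes was -0.0092 and 0.012. On both arrays 27 of the 38 were above 0, against 33.9% of all tested genes, and 2, Rfc2 and Cdt1, were below 0, against 33.8%. With median centring of the arrays, which raised the ratios of all genes on the treatment array, 29 of the 38 and 50.4% of all genes were above 0 on both, and the medians became 0.12 and 0.79 for the 38 and 0.016 and 0.42 for all genes. A further 8 were below 0 in the genotype comparison and above 0 in the treatment comparison, a pattern of 18.4% of all genes, and 1, Rfc3, was the other way round, as were 14% of all genes. The larger log2 ratio was in the treatment comparison for 31 of the 38, against 51.4% of all genes. In bulk RNA fewer cells in S phase and less RNA per cell cannot be told apart.

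**Figure D1:**
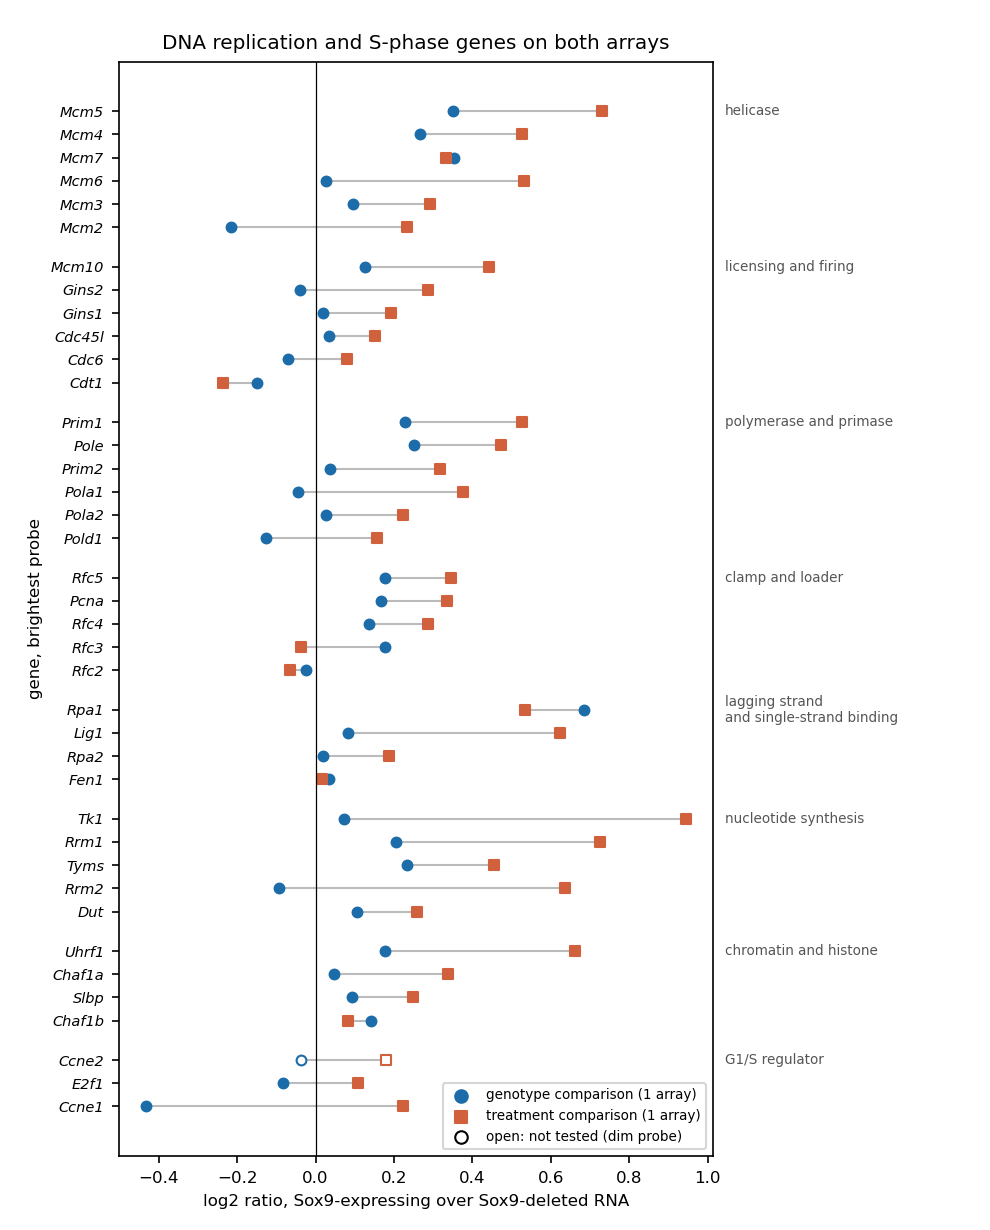
Log2 ratio of Sox9-expressing over Sox9-deleted RNA (horizontal axis) for each of the 39 genes (rows, by role), with a circle for the genotype comparison and a square for the treatment comparison, 1 array each, and open symbols for Ccne2, which was not tested. Most squares lie to the right of the circles, and 27 tested genes have both symbols to the right of 0.

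None of these differences passed the test of both arrays. After adjustment limma called 0 of the 38 genes, against 0.0132% of all tested genes, and the lowest adjusted p was 0.118, of Rpa1. At an unadjusted p under 0.05 limma called 11 of the 38 as higher and 0 as lower, against 10.5% and 9.08% of all genes. The 11 were Mcm4, Mcm5, Mcm7, Pcna, Rfc5, Pole, Prim1, Rrm1, Tyms, Rpa1 and Uhrf1. A difference of at least 1.5-fold in the same direction on each array was found for 0 of the 38, where 2.25% of all genes had one. Taken alone, the genotype comparison had 1 gene at least 1.5-fold higher, Rpa1, against 2.1% of all genes, and the treatment comparison had 6, Tk1, Mcm5, Rrm1, Uhrf1, Rrm2 and Lig1, against 5.03%. Most single values were thus small. The fit of 2 arrays kept 1 residual degree of freedom, and its p-values and intervals measure only the spread between these arrays. The intervals given below with a mean come from this fit, which draws the spread of a gene towards that of all tested probes. They do not follow from the SD printed beside them, which is that of 2 values from different comparisons. An interval that leaves out 0 thus rests on the spread of other probes as well. In all 11 ways of processing the values the median of the replication genes lay above that of all genes, by 0.07 to 0.12 on the genotype array and by 0.21 to 0.37 on the treatment array.

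**Figure D2:**
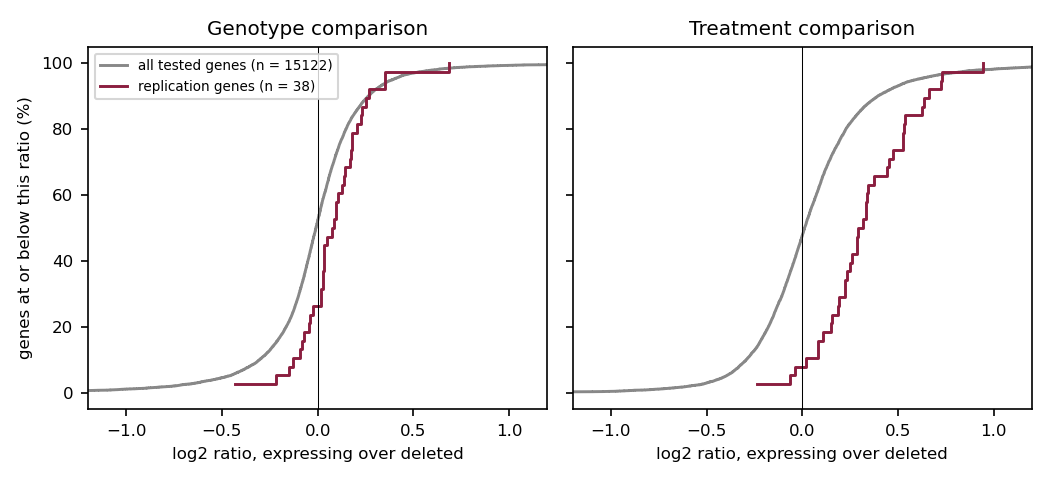
Share of genes (vertical axis, percent) at or below each log2 ratio (horizontal axis) for the 38 tested replication genes and for all 15122 tested genes, with 1 array in each panel. The curve of the replication genes lies to the right of that of all genes over most of its length, with medians of 0.078 against -0.0092 on the left and 0.30 against 0.012 on the right.

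The MCM2-7 proteins form the ring of the replicative helicase. Of its 6 subunits 5 had log2 ratios above 0 on both arrays, and the medians of the 6 were 0.18 and 0.43. Mcm5 had 0.35 on the genotype array and 0.73 on the treatment array, a mean of 0.54 ± 0.27 (SD, n = 2, 95% interval 0.20 to 0.88, limma adjusted p = 0.186). Its log2 level, the brightness after normalization of both dyes, was 8.80 in wild-type TAM RNA and 8.45 in the Sox9-deleted RNA beside it, and 9.11 in vehicle RNA and 8.38 in the Sox9-deleted RNA beside that. Both Sox9-expressing RNAs were thus above both Sox9-deleted RNAs for Mcm5, whose probe lies at chr8:77651350-77651410 of mm9. Mcm4 had 0.27 on the genotype array and 0.53 on the treatment array, a mean of 0.40 ± 0.18 (SD, n = 2, 95% interval 0.12 to 0.68, limma adjusted p = 0.200). Its log2 level was 11.20 in wild-type TAM RNA and 10.93 in the Sox9-deleted RNA beside it, and 11.24 in vehicle RNA and 10.72 in the Sox9-deleted RNA beside that. The groups again did not overlap, an order that 24 of the 38 genes had, against 27% of all tested genes. Mcm7 was the most even of the ring, with 0.35 and 0.33, while Mcm6 (0.026 and 0.53) and Mcm3 (0.095 and 0.29) were close to 0 in the genotype comparison. A second tested probe of Mcm3 had -0.020 and 0.25, and a second probe of Mcm4, which was not tested, 0.11 and 0.094. Among the brightest probes Mcm2 was the exception, with -0.22 on the genotype array and 0.23 on the treatment array. Its log2 level was 8.09 in wild-type TAM RNA and 8.31 in the Sox9-deleted RNA beside it, and 8.57 in vehicle RNA and 8.33 in the Sox9-deleted RNA beside that. The wild-type RNA was the lowest of the 4 for Mcm2 and the vehicle RNA the highest, with the Sox9-deleted RNAs between them, and the mean of 0.0085 turned negative under 5 of the other ways of processing.

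Genes that load the helicase and fire it had the smallest values among the roles with 3 or more tested genes, with medians of -0.01 and 0.17. Cdc6 and Cdc45l were dim, with log2 levels of 6.80 to 6.99 where those of the untested Ccne2 were 6.53 to 6.71. The offset used in background correction understates log2 ratios of dim probes, so the small values of Cdc45l may be understated. With an offset of 10 in place of 50 the mean of Cdc45l was 0.17, against 0.093. That of Cdc6 was near 0 with either offset (0.024 and 0.0042). Cdt1, which brings the helicase to origins together with Cdc6, was the lowest of all 38, at -0.15 on the genotype array and -0.24 on the treatment array, a mean of -0.19 ± 0.062 (SD, n = 2, 95% interval -0.41 to 0.022, limma adjusted p = 0.312). Its log2 level was 9.80 in wild-type TAM RNA and 9.95 in the Sox9-deleted RNA beside it, and 9.75 in vehicle RNA and 9.99 in the Sox9-deleted RNA beside that. Both Sox9-deleted RNAs were above both Sox9-expressing RNAs, the reverse of most of the set, although with median centring in place of loess its mean became 0.096. Cdc6 had -0.071 on the genotype array and 0.08 on the treatment array, with log2 levels of 6.89 in wild-type TAM RNA and 6.96 in the Sox9-deleted RNA beside it, and 6.99 in vehicle RNA and 6.91 in the Sox9-deleted RNA beside that. These levels lay within 0.096 of each other, without an order by Sox9, and the mean turned negative under 3 other ways of processing. Of the factors that turn the loaded ring into an active helicase, Mcm10 had 0.13 and 0.44, Gins2 -0.039 and 0.29, Gins1 0.018 and 0.19 and Cdc45l, now named Cdc45, 0.034 and 0.15. The mean of Cdc45l went from 0.093 to 0.28 on processed signals.

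The 6 polymerase and primase genes were all above 0 in the treatment comparison, and 4 of them on both arrays. Prim1, the catalytic subunit of the primase that starts each strand, had 0.23 and 0.53, and its partner Prim2 0.036 and 0.32. Pole, the leading strand polymerase, had 0.25 and 0.47, whereas Pold1, the lagging strand polymerase, had -0.13 and 0.16, with a mean that turned negative under 3 other ways of processing. A second probe of Pole, which was not tested, had 0.016 and -0.023. The subunits of polymerase alpha, Pola1 and Pola2, had -0.046 and 0.38 and 0.027 and 0.22. With processed signals of the scanner the mean of Pola1 went from 0.17 to 0.50 and that of Pole from 0.36 to 0.62. None of the 6 genes passed the test.

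Pcna, the sliding clamp, was measured in 10 spots, more than any other gene of the set. It had 0.17 on the genotype array and 0.33 on the treatment array, with an SD over spots of 0.0206 and 0.0154, and a mean of 0.25 ± 0.12 (SD, n = 2, 95% interval 0.013 to 0.49, limma adjusted p = 0.270). The difference between its arrays, 0.17, was larger than the spread between spots, which does not hold the spread between cultures. Of the clamp loader genes Rfc5 (0.18 and 0.34) and Rfc4 (0.14 and 0.29) were above 0 on both arrays. Rfc2 had -0.024 on the genotype array and -0.065 on the treatment array, with log2 levels of 11.80 in wild-type TAM RNA and 11.83 in the Sox9-deleted RNA beside it, and 11.80 in vehicle RNA and 11.87 in the Sox9-deleted RNA beside that. These levels were nearly equal, a second probe of Rfc2 had 0.064 and 0.02, and the mean became 0.32 with median centring. Rfc3 had 0.18 and -0.037, and its mean of 0.07 was 0.14 on processed signals. None of these genes passed the test.

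Rpa1, the large subunit of the protein that coats single-stranded DNA, had the highest mean of the set, with 0.69 on the genotype array and 0.53 on the treatment array, a mean of 0.61 ± 0.11 (SD, n = 2, 95% interval 0.38 to 0.84, limma adjusted p = 0.118). On the linear scale this was 1.61-fold and 1.45-fold. Its log2 level was 10.13 in wild-type TAM RNA and 9.44 in the Sox9-deleted RNA beside it, and 9.99 in vehicle RNA and 9.45 in the Sox9-deleted RNA beside that. Rpa1 was 1 of 7 genes whose log2 ratio was not larger in the treatment comparison, and the Sox9-deleted RNAs of both arrays gave nearly the same level. With median centring limma called it, as the only gene of the set, at a mean of 0.90 (adjusted p = 0.0460), a setting under which 2.81% of all genes were called. Its probe lies at chr11:75114060-75114119 of mm9. The partner subunit Rpa2 had 0.018 and 0.19. Of the enzymes that finish the lagging strand, the ligase Lig1 had 0.083 and 0.62 and the flap nuclease Fen1 0.035 and 0.017.

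The 5 genes of deoxynucleotide synthesis had the highest median of the roles in the treatment comparison, with medians of 0.11 and 0.64. Tk1, the thymidine kinase of cycling cells, had 0.073 on the genotype array and 0.94 on the treatment array, the highest log2 ratio of the set on any array and a 1.92-fold difference. With a mean of 0.51 ± 0.62 (SD, n = 2, 95% interval -0.16 to 1.17, limma adjusted p = 0.361), the difference was within the spread between arrays. Its log2 level was 8.69 in wild-type TAM RNA and 8.62 in the Sox9-deleted RNA beside it, and 9.41 in vehicle RNA and 8.47 in the Sox9-deleted RNA beside that. The vehicle RNA stood apart from the other 3, which lay within 0.22 of each other. Ribonucleotide reductase makes deoxynucleotides from ribonucleotides, and its large subunit Rrm1 had 0.20 on the genotype array and 0.72 on the treatment array, a mean of 0.46 ± 0.37 (SD, n = 2, 95% interval 0.034 to 0.89, limma adjusted p = 0.263). The log2 level of Rrm1 was 9.67 in wild-type TAM RNA and 9.46 in the Sox9-deleted RNA beside it, and 10.17 in vehicle RNA and 9.45 in the Sox9-deleted RNA beside that. Both Sox9-expressing RNAs were above both Sox9-deleted RNAs, with the vehicle RNA well above the wild-type RNA. A second probe of Rrm1, which was not tested, had 0.027 and -0.14. The small subunit Rrm2 had -0.092 and 0.64, and differed between the arrays by 0.73. Tyms and Dut, which make and protect the thymidylate pool, had 0.23 and 0.45 and 0.11 and 0.26.

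Uhrf1, which brings the maintenance DNA methyltransferase to replicated DNA, had 0.18 on the genotype array and 0.66 on the treatment array, a mean of 0.42 ± 0.34 (SD, n = 2, 95% interval 0.013 to 0.83, limma adjusted p = 0.278). Its log2 level was 8.18 in wild-type TAM RNA and 8.00 in the Sox9-deleted RNA beside it, and 8.57 in vehicle RNA and 7.91 in the Sox9-deleted RNA beside that, so the groups did not overlap, and its second probe had 0.096 and 0.55. The chromatin assembly subunits Chaf1a and Chaf1b, which place histones on new DNA, had 0.047 and 0.34 and 0.14 and 0.083, and Slbp, which binds histone mRNA, 0.094 and 0.25. The 4 genes were above 0 on both arrays.

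The regulators of S-phase entry were the only role with no gene above 0 in the genotype comparison. E2f1, the transcription factor, had -0.083 on the genotype array and 0.11 on the treatment array, with log2 levels of 8.34 in wild-type TAM RNA and 8.42 in the Sox9-deleted RNA beside it, and 8.47 in vehicle RNA and 8.36 in the Sox9-deleted RNA beside that. No order by Sox9 was seen in E2f1, its second probe was below 0 on both arrays (-0.17 and -0.20), and its mean of 0.013 turned negative under 6 other settings. Cyclin E1 drives Cdk2 at the start of S phase, and its gene Ccne1 had -0.43 on the genotype array and 0.22 on the treatment array, the lowest genotype value of the set. The log2 level of Ccne1 was 9.01 in wild-type TAM RNA and 9.44 in the Sox9-deleted RNA beside it, and 9.64 in vehicle RNA and 9.42 in the Sox9-deleted RNA beside that. The wild-type RNA was the lowest of the 4 and the vehicle RNA the highest, while the Sox9-deleted RNAs were nearly equal. A second tested probe of Ccne1 did not show this, with -0.0043 and 0.033, and the mean of -0.10 became 0.17 with median centring. Over all 18 other probes of the set, 11 were tested, of which 7 had the same sign on both arrays as the brightest probe of their gene.

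**Figure D3:**
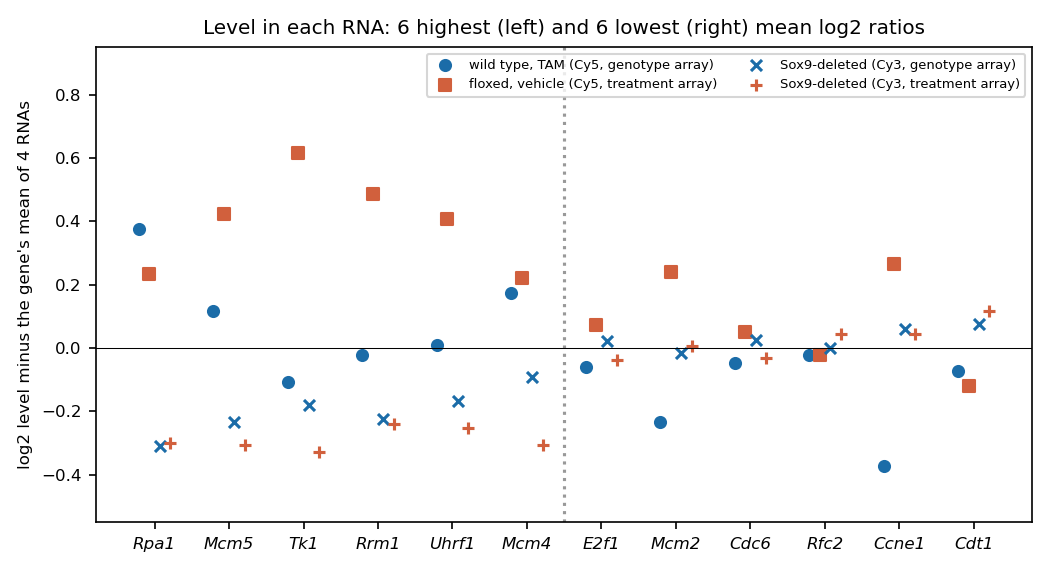
Log2 level of each of the 4 RNAs minus the gene's mean over them (vertical axis) for the 6 genes with the highest and the 6 with the lowest mean log2 ratio, with filled symbols for Sox9-expressing RNA, crosses for Sox9-deleted RNA, blue for the genotype array and orange for the treatment array. At the left the vehicle RNA is highest for 5 of the 6 genes, all but Rpa1, and at the right for E2f1, Mcm2, Cdc6 and Ccne1, while Cdt1 has both deleted RNAs on top.

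Set side by side over all 38 genes, the vehicle RNA was the highest of the 4 for 32 genes, a count that was not made for all tested genes. The wild-type RNA was highest for 4, Rpa1, Mcm7, Rfc3 and Fen1, and a Sox9-deleted RNA for Cdt1 and Rfc2. Between arrays and within one dye, the vehicle RNA was above the wild-type RNA for 33 of the 38 genes, against 48.5% of all tested genes. The median difference was 0.15 where that of all genes was -0.00785. The Sox9-deleted RNAs differed less, with a median of -0.0327 against -0.0218. The larger values of the treatment array thus went with a higher level in the vehicle RNA, which is 1 RNA. Markers of cell types differed between the RNAs as well. The log2 of the summed level of the 10 stromal markers was 16.5 in vehicle RNA, 15.1 in wild-type RNA and 15.9 and 15.8 in the Sox9-deleted RNAs, with medians of the log2 ratio of -0.74 and 0.67. That of 4 skeletal muscle markers was 11.8 in vehicle RNA, 9.51 in wild-type RNA and 10.6 and 10.2 in the Sox9-deleted RNAs. Of these 4 only Acta1 was well above background in all 4 RNAs, and it set most of the sum (11.44 in vehicle RNA). Myog, Tnnt3 and the untested Myod1 were dim in wild-type RNA (6.55 to 6.77). The 8 epithelial markers had medians of the log2 ratio of -0.13 and -0.53. The log2 of their summed level was 17.6 in vehicle RNA, 17.8 in wild-type RNA and 17.9 and 18.1 in the Sox9-deleted RNAs. This sum was set mostly by Krt8, Krt18 and Krt19, at log2 levels of 15.4 to 16.7. Single epithelial markers split, with 3 above 0 on both arrays, Dsp most (0.94 and 0.66), and 4 below 0, Cldn4 most (-0.84 and -1.04). For the 6 basal epithelial markers the log2 of the summed level was 18.5 in wild-type RNA and 18.3 in vehicle RNA against 16.8 in both Sox9-deleted RNAs. The summed levels of stromal and muscle markers were thus highest in vehicle RNA and lowest in wild-type RNA. The stromal marker Dcn was instead higher in both Sox9-deleted RNAs (13.53 and 13.39) than in vehicle RNA (13.25). Twist1 was dim and nearly equal in all 4 RNAs (6.67 to 6.69). The part of these cell types in the values of the replication genes was not tested.

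Genes with related roles were read in the same way. Of all tested genes 33.9% were above 0 and 33.8% below 0 on both arrays. At an unadjusted p under 0.05 limma called 10.5% of all tested genes higher and 9.08% lower. The counts of the lists are to be read beside these shares. Of 36 other replication genes, such as those of the origin recognition complex and of fork protection, 34 were tested, with medians of 0.063 and 0.12. Among them 23 were above 0 and 6 below 0 on both arrays, and limma called 0 after adjustment, with 5 higher and 1 lower at an unadjusted p under 0.05. Dscc1, of an alternative clamp loader, was the highest (0.16 and 0.66) and Orc4l, of the origin recognition complex, the lowest (-0.15 and -0.45). Of 23 tested S-phase regulators and nucleotide enzymes, with medians of 0.067 and 0.19, 10 were above and 3 below 0 on both arrays and 0 passed after adjustment, with 3 higher at an unadjusted p under 0.05. Ccna2, the cyclin of S and G2 phase, was the highest (0.41 and 1.51) and Gart, an enzyme of purine synthesis, the lowest (-0.12 and -0.37). Of 13 factors of replication-coupled chromatin, with medians of 0.086 and 0.15, 9 were above 0 on both arrays, 0 below, and 0 passed after adjustment, with 1 higher at an unadjusted p under 0.05. Cdca7 was the highest (0.63 and 0.57) and Rbbp7, a histone chaperone, the lowest (-0.11 and 0.071). The wider replication machinery thus had smaller medians than the 39-gene set in the treatment comparison, a difference that was not tested.

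The values of mitosis genes were larger. Of 20 tested mitosis genes 19 were above 0 on both arrays, against 33.9% of all tested genes, with medians of 0.34 and 1.09. At an unadjusted p under 0.05 limma called 12 as higher, against 10.5% of all tested genes, although 0 passed after adjustment. Cdc20, the activator of the anaphase-promoting complex, was the highest (0.91 and 1.66) and Bub1, a checkpoint kinase, the lowest (0.13 and -0.016). On the treatment array 16 of these 20 genes were at least 1.5-fold higher, beside 6 of the 38 replication genes and 5.03% of all tested genes. On the genotype array there were 4, beside 1 replication gene and 2.1% of all tested genes. Like the replication genes, 19 of the 20 had the larger value in the treatment comparison, against 51.4% of all tested genes. The 7 cell-cycle inhibitors were all below 0 in the genotype comparison and 5 of them above 0 in the treatment comparison, with medians of -0.15 and 0.36. The pattern of these 5 was that of 18.4% of all tested genes. Of the 7 inhibitors 0 passed after adjustment, with 1 lower at an unadjusted p under 0.05, against 9.08% of all tested genes. Cdkn1c was the highest (-0.20 and 1.61), and Cdkn1a, the p21 inhibitor that also binds Pcna, the lowest (-0.65 and -0.96, limma adjusted p = 0.118).

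**Figure D4:**
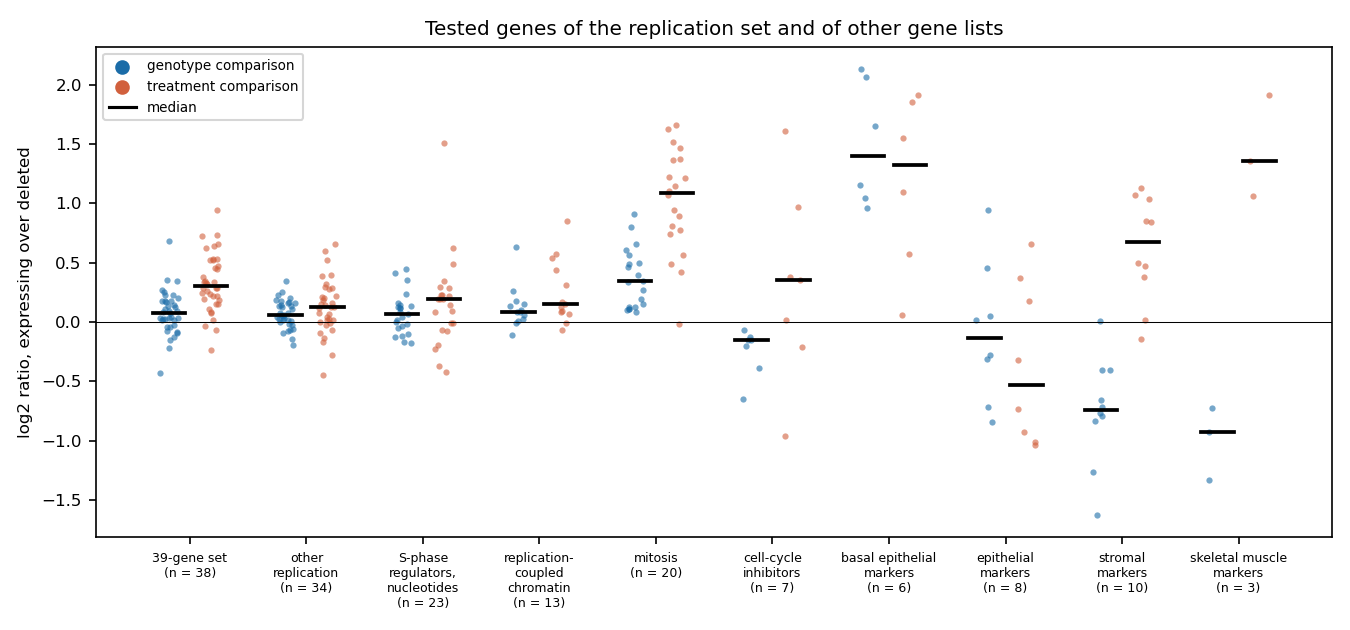
Log2 ratio of each tested gene (vertical axis) by gene list (horizontal axis, with the number of tested genes), blue for the genotype comparison and orange for the treatment comparison, with a bar at each median. The replication set has medians of 0.078 and 0.30, the mitosis genes 0.34 and 1.09, and the stromal and skeletal muscle markers lie mostly below 0 in the genotype comparison and mostly above 0 in the treatment comparison.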

How the data were processed

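Agilent Feature Extraction 10.5.1.1 gave, per the file headers, the mean intensity and median local background intensity of each spot in both dyes, deposited uncorrected, with processed intensities and their log10 ratio of Cy5 over Cy3. The authors also deposited a table whose values are log2 ratios. Probe positions are those of mm9 in the headers.

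From mean and background intensities, limma 3.58.1 (R 4.3.3) corrected background (normexp, offset 50), control spots were left out, each array was loess-normalized, and outlier spots were dropped. Spots of a probe were averaged. The offset understates log2 ratios of dim probes. Of 41174 probes 22731 were well above background on most spots in 1 dye of both arrays, and were tested against 0 with lmFit and eBayes, with Benjamini-Hochberg adjustment over them. Levels of single RNAs came after Aquantile normalization. The prior of eBayes, taken from the spread of all tested probes, had 2.80 degrees of freedom and enters the p-values and intervals. Replicate spots of 167 probes had a median SD of 0.0362 and 0.0429. The number of arrays limits precision. The scripts were checked against simulated data.

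The genes named were all 39, in each RNA for the 6 highest and 6 lowest means since none met a stricter rule, and of each other gene list the highest and lowest tested gene. The genes and lists were chosen with earlier results of these data known. The alternatives were median centring, another offset, no background subtraction, processed intensities, the authors' table, other filters, a mean over probes, scaled arrays, the methods' t-test and 1 array alone. Python 3.11.15, pandas 2.3.3, numpy 2.4.6 and matplotlib 3.10.9 made the promoter counts and figures.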

Additional observations from a re-analysis of the deposited data

Results flagged for a closer look

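For 9 replication genes the 2 comparisons had opposite signs, and since each comparison is 1 array the difference was not tested. Below 0 in the genotype comparison and above 0 in the treatment comparison were Rrm2, Ccne1, Mcm2, Pola1, Gins2, Pold1, E2f1 and Cdc6. Their treatment log2 ratio exceeded the genotype log2 ratio by 0.73 for Rrm2, 0.66 for Ccne1, 0.45 for Mcm2, 0.42 for Pola1, 0.33 for Gins2, 0.28 for Pold1, 0.19 for E2f1 and 0.15 for Cdc6. For Rfc3 the order was turned, with a treatment value of -0.037, a genotype value of 0.18 and a difference of -0.21.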

How the results depend on the processing

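Median centring, used instead of loess, moved the median of all tested genes to 0.016 on the genotype array and 0.42 on the treatment array. With it the median of the replication genes over both arrays went from 0.19 to 0.44, limma called 1 gene after adjustment and not 0, 0 genes and not 2 were below 0 on both arrays, and 1 gene was at least 1.5-fold in the same direction on each array. On the scanner software's processed signals 1 gene was below 0 on both arrays and 1 was at least 1.5-fold on each. With 1 array alone the count below 0 ranged from 3 to 10 and the count at least 1.5-fold from 1 to 6, the 6 without the genotype comparison and the 1 without the treatment comparison. The mean log2 ratio changed sign with median centring for Cdt1 (0.096), Rfc2 (0.32) and Ccne1 (0.17). It became negative for Mcm2 with an offset of 10 (-0.013), no background subtraction (-0.047), processed signals (-0.074), the authors' table (-0.036) and scaled arrays (-0.063), and for E2f1 under the same 5 (-0.0075, -0.0027, -0.033, -0.025 and -0.017) and the mean over probes (-0.086). For Cdc6 it was -0.020 without background subtraction, -0.070 on processed signals and -0.020 with scaled arrays, and for Pold1 -0.0031 with the offset of 10, -0.0042 without background subtraction and -0.030 with scaled arrays. The cause was not tested. Of all tested genes limma called 2 after adjustment, but 425 with median centring, 56 on the authors' table, 16 when dim probes were kept, and 0 with the offset of 10, no background subtraction, processed signals, the mean over probes and scaled arrays. Of the 38 means, 31 were positive in all 11 settings, 0 negative in all and 7 mixed. The other filters and the t-test leave the mean of a gene unchanged, so their sign was fixed by the main setting. The methods' t-test called 0 of the 38 after adjustment and 1 without it. Each log2 ratio already pairs the RNAs of 1 array, and no further pairing by replicate number could be made, because the comparisons share fewer than 2 numbers.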
